A study of Oryza sativa with 18 samples.

Results

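The AP2/ERF family was followed in rice flag leaves with 5 loci, DREB factors and an ERF, set aside. Members were taken from the gene descriptions in the deposited table, as every row described as an ethylene-responsive transcription factor, a dehydration-responsive element-binding protein or an AP2-like factor. Of 157 matching rows 5 loci were left out, which gave 152 members among the 38993 genes listed. The removal did not take every DREB1 gene: OsDREB1G and OsERF-133, which is described as DREB1H, still matched and stay among the members. OsDREB1D and OsDREB1E matched too but were too low to be examined. Values were examined for the 56 members that reached 1 FPKM in at least 3 of 18 libraries. FPKM is fragments per kilobase of transcript, scaled to library size, so levels of different genes are given per length. Of the other 96 members, 53 were above 0 somewhere and 43 were listed at 0 in every library.

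AP2/ERF proteins share a DNA-binding domain found in plant transcription factors and include the end points of the ethylene signal. In that pathway ethylene silences its receptors and the kinase CTR1, which frees EIN2 and stabilizes EIN3 and its relatives EIL, and these switch on ERF genes. Some ERF proteins activate genes, some carry an EAR motif and repress them, and the group VII type is known in Arabidopsis for being degraded in the presence of oxygen and in rice for the submergence locus Sub1.

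Polyadenylated RNA was sequenced in strand-specific libraries from flag leaves at grain filling of the hybrid Hanyou73 and of its parents Hanhui3 and Huhan7B. Each genotype was kept watered or was droughted by stopping irrigation early in grain filling, in the same field, with leaves cut at 1 stage and time of day. The 6 groups hold 3 libraries each. A library is a pool of leaves from several plants of 1 plot, so errors are between pools and the spread between single plants cannot be read from them. Whether the 3 pools of a group come from different plots is not stated in the labels, and if they do not, p-values measure only the spread between pools. Soil and leaf water values were not used here. Fewer cells of a type and less RNA per cell cannot be told apart in such leaf RNA.

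The deposited levels imply 13.14 to 16.5 M fragments per library, and 19088 to 21021 genes were at 1 FPKM or more. At the lowest depth 1 FPKM stands for 1.18 to 31.4 fragments in a member, with a median of 12.8, so members near 1 FPKM rest on few fragments. Across the 22590 genes tested, which are not independent replicates, libraries of a group correlated at 0.982 to 0.989 and libraries of different groups at 0.837 to 0.957. The hybrid libraries carried RNA of both parents: of 47 genes at 5 FPKM or more in every Hanhui3 library and at most 0.1 in Huhan7B, 47 were above 0.1 in the hybrid, at a median of 0.491 of the Hanhui3 level. Of 48 such genes of Huhan7B, 41 were detected, at a median of 0.52 of the Huhan7B level. Leaf markers, 30 genes of the Rubisco small subunit and chlorophyll binding proteins with 24 tested, were abundant in every library, and their summed level differed between groups. It was 17423 to 18591 FPKM in watered and 24848 to 25226 in droughted Hanyou73, 56795 to 57867 and 73886 to 81260 in Huhan7B, and 85386 to 94273 and 90364 to 93042 in Hanhui3. Of 53 grain storage markers 3 were tested and 29 were at 0 everywhere, with sums of 83.0 to 130.6 FPKM. The 37 stem and vascular markers, 17 tested, summed to 57.4 to 61.2 FPKM in watered and 126.5 to 130.4 in droughted Hanyou73 while they were lower in drought in Huhan7B, at 45.7 to 50.2 and then 10.8 to 11.5, and higher in Hanhui3, at 12.5 to 13.6 and then 22.0 to 25.7. The 31 markers of pollen and flower, 9 tested, summed to 124.5 to 131.8 FPKM in watered and 422.8 to 442.8 in droughted Hanyou73, to 862.5 to 923.2 and 81.8 to 93.7 in Huhan7B, and to 47.5 to 55.9 and 73.6 to 78.8 in Hanhui3. The 91 markers of dividing cells, 54 tested, were higher in drought in Hanyou73, at 6800 to 7162 and then 8119 to 8178 FPKM, and in Hanhui3, at 3649 to 3972 and then 5231 to 5276, and lower in Huhan7B, at 9690 to 9986 and then 6596 to 6622. That list takes cyclin-B genes and any gene described as histone H2A, H2B, H3 or H4, not only those of dividing cells. Its most abundant gene, Os06g0130900, was at 311.57 to 2231.65 FPKM. The most abundant gene of the pollen and flower list was OsPR10a, described as a pollen allergen relative, at 23.56 to 401.31 FPKM. The part of these shifts in the member results was not tested.

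Of the 56 members, 50 list an AP2 domain, and 38 were at 1 FPKM or more in every library. The filter took in 4 members, OsERF-039, DERF3, OsDREB1G and OsERF-047, that reached 1 FPKM in only 3 to 5 libraries and had a mean of at least 1 FPKM in droughted Hanyou73 alone. These 4 had to be high in that group to be measured, so their rise there and their lead over the parents follow from the filter and are given without a test. OsERF-039 (Os01g0200600), DERF3 (Os08g0474000) and OsDREB1G (Os02g0677300) lay just inside with 3, 3 and 4 libraries, while OsDREB1D and ERF131 lay just outside with 2 libraries each. The highest value of a member left out was 7.55 FPKM, in a single library. Mean levels over the 18 libraries ran from 0.333 to 466 FPKM with a median of 17.9.

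The most abundant member was OsAP2 (Os01g0131600), with a lowest, median and highest library of 294, 465 and 654 FPKM. It was followed by OsERF-049 (Os02g0752800) at 274, 337 and 460.2 FPKM and OsERF-058 (Os03g0815800) at 183, 265 and 705 FPKM. The ranges of these 3 members overlapped. The next 7 in order of the mean were OsERF-050, Sub1B, OsERF-064, Os02g0752701, OsERF-076, OsEREBP and ERF71, and 11 members in all had a mean of at least 100 FPKM while 18 had a mean under 5.

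The largest changes of members in drought were in the hybrid, where 5 repressor type ERF genes had log2 changes above 2 and 7 of 10 group VII type genes fell. In Hanyou73, 30 of the 56 members rose and 15 fell, beside 45% and 25.7% of all genes tested, and without the 4 members that the droughted hybrid alone brought in, 26 of 52 rose. In Hanhui3, 14 rose and 19 fell, beside 35.1% and 18.4%, and in Huhan7B 20 rose and 10 fell, beside 21.2% and 32.1%. A call is an adjusted p under 0.05 in limma's moderated test on log2(FPKM + 1), with Benjamini-Hochberg adjustment over all genes tested. Changes are log2 values on that scale, which understates the change of members near 1 FPKM. The median change of the members was 0.43 in Hanyou73, -0.05 in Hanhui3 and 0.14 in Huhan7B, against 0.17, 0.10 and -0.07 over all genes. Members called with a log2 change of at least 1 in either direction numbered 25 in Hanyou73 (44.6%, against 20.3% of all genes, and 21 without those 4), 11 in Hanhui3 (19.6% against 7.13%) and 8 in Huhan7B (14.3% against 7.44%). Members were taken by description and grouped below by the factor that the description names, with these values already known, so the counts describe the groups and support nothing further. Each count of a group below is to be read beside the shares of all genes given here for that genotype. Several of the counts are near those shares. Where a count of 0 is given below, limma's count at an unadjusted p under 0.05 was 0 too, except where stated. Median-ratio scaling, an alternative named below, divides each library by the median ratio of its genes to their mean level.

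**Figure D1:**
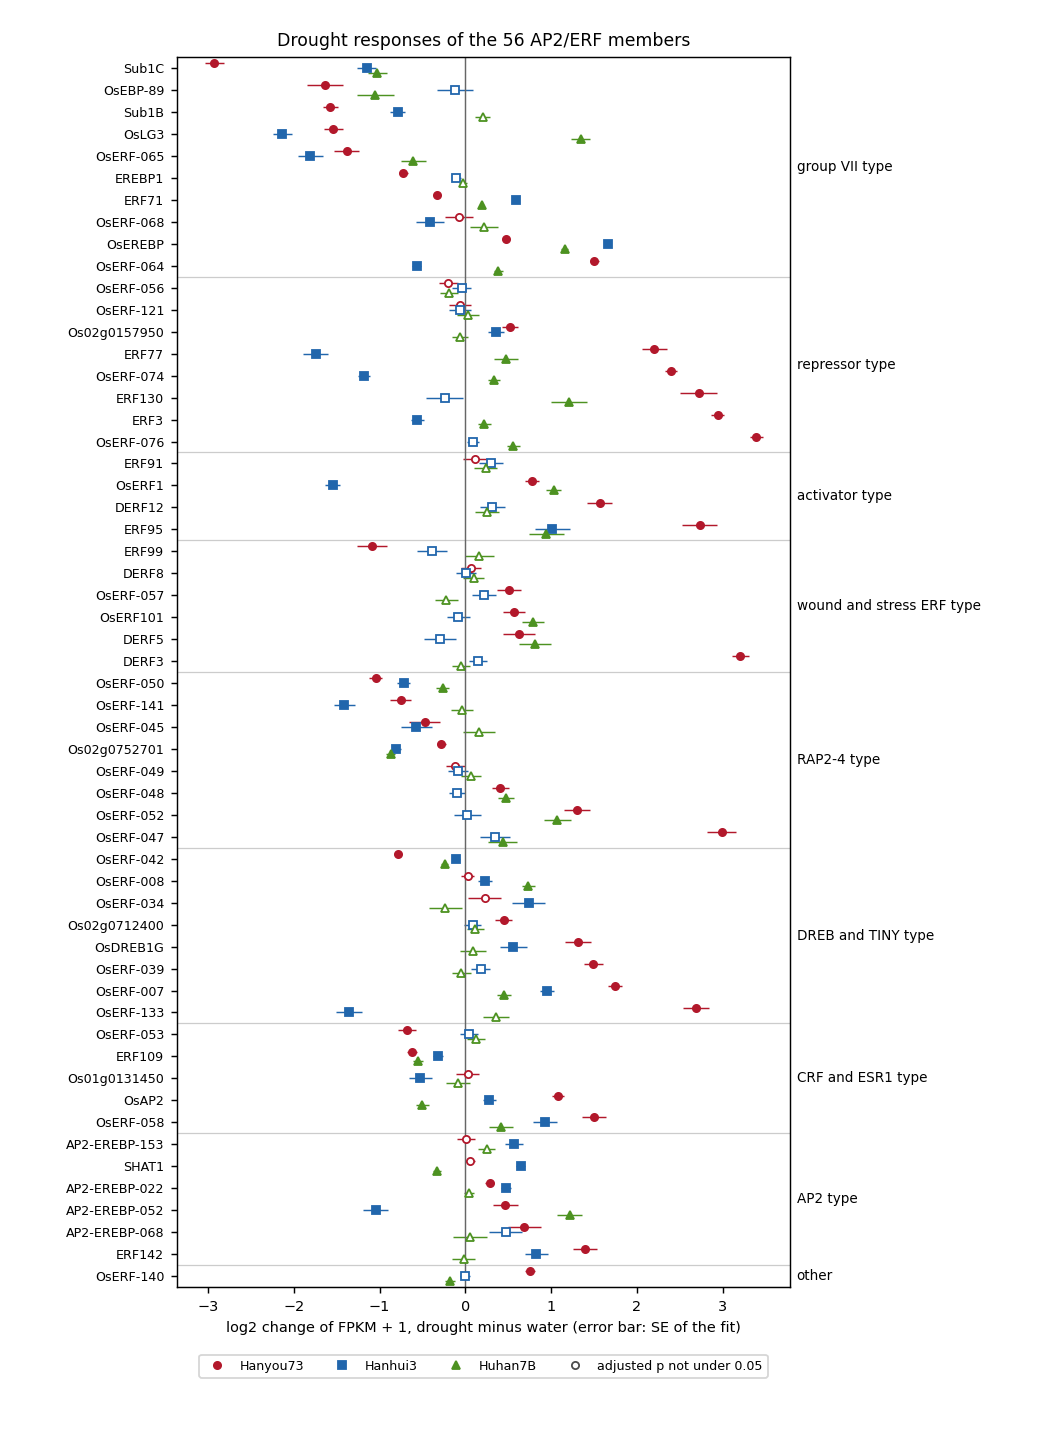
Log2 change of FPKM + 1 from water to drought (x axis) for each of the 56 members (y axis, by role) in Hanyou73 (circles), Hanhui3 (squares) and Huhan7B (triangles). Bars are the SE of the fit and open symbols did not pass an adjusted p of 0.05. The hybrid reaches 3.39 for OsERF-076 and -2.93 for Sub1C, while Huhan7B stays between -1.05 and 1.34.

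Repressor type members, described as like ERF3, ERF4, ERF7, ERF11 or ERF12, are factors known in Arabidopsis, tobacco or rice for switching genes off through an EAR motif. Of 8 measured, 6 rose and 0 fell in Hanyou73 with a median log2 change of 2.30. In Hanhui3 1 rose and 3 fell with a median of -0.15, and in Huhan7B 5 rose and 0 fell with a median of 0.28. The plot of the repressor type shows that 5 of these 8 stood in droughted Hanyou73 far above its watered libraries. In the same libraries the summed pollen and flower, stem and vascular, leaf and dividing-cell markers were higher in drought than in water, at the values given above. The grain sum was lower there, at 127.5 to 130.6 and then 111.9 to 117.2 FPKM. In Hanhui3 the pollen and flower, stem and vascular and dividing-cell sums were higher in drought too. The part of these marker shifts in the changes of the repressor type was not tested. In Huhan7B the 5 that rose became 3 without its droughted replicate 2.

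OsERF-076 (Os04g0669200) had the largest rise of any member in the hybrid. Its Hanyou73 libraries held 42.7, 42.6 and 47.4 FPKM in water and 441, 486 and 496 FPKM in drought. Huhan7B had 72.4, 75.5 and 87.7 FPKM in water and 115, 118 and 114 FPKM in drought, and Hanhui3 had 58.6, 62.3 and 60.5 FPKM in water and 66.8, 68.3 and 58.4 FPKM in drought. The droughted hybrid was above all other libraries, watered hybrid libraries were below those of both parents, and the Hanhui3 groups overlapped. The mean level was 10.7-fold higher in the droughted than in the watered hybrid. The log2 change was 3.39 (SE 0.07) in Hanyou73 and 0.56 (SE 0.07) in Huhan7B, and the value in Hanhui3, 0.09 (SE 0.07), did not pass the test.

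ERF3 (Os01g0797600), a rice repressor known for its effects on ethylene synthesis and drought tolerance, was at 8.37, 9.66 and 10.1 FPKM in water and 80.2, 76.8 and 78.5 FPKM in drought in Hanyou73. It was at 16.4, 15.4 and 17.3 FPKM in water and 11.5, 11.1 and 9.71 FPKM in drought in Hanhui3 and at 14.7, 13.3 and 14.0 FPKM in water and 15.5, 16.8 and 17.2 FPKM in drought in Huhan7B. Levels rose without overlap in the hybrid, fell without overlap in Hanhui3, and in Huhan7B were slightly higher in drought without overlap. The log2 change was 2.94 (SE 0.07) in Hanyou73, -0.56 (SE 0.07) in Hanhui3 and 0.22 (SE 0.07) in Huhan7B. The small rise in Huhan7B was not called without its watered replicate 2, at 0.19 (adjusted p = 0.0727), its droughted replicate 2, at 0.21 (adjusted p = 0.0535), or its droughted replicate 3, at 0.19 (adjusted p = 0.0691).

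OsERF-074 (Os05g0497300) and ERF77 (Os04g0610400) moved in opposite directions in the hybrid and Hanhui3. OsERF-074 was at 59.3, 56.4 and 57.0 FPKM in water and 322, 293 and 308 FPKM in drought in Hanyou73, and at 79.1, 70.5 and 62.9 FPKM in water and 30.0, 28.9 and 32.9 FPKM in drought in Hanhui3. ERF77 was at 33.6, 25.4 and 34.5 FPKM in water and 155, 139 and 144 FPKM in drought in Hanyou73, and at 22.0, 19.8 and 15.1 FPKM in water and 4.76, 5.20 and 4.70 FPKM in drought in Hanhui3. No watered library overlapped a droughted one in these 4 comparisons. The log2 changes of OsERF-074 were 2.40 (SE 0.07) in the hybrid, -1.18 (SE 0.07) in Hanhui3 and 0.34 (SE 0.07) in Huhan7B. Those of ERF77 were 2.20 (SE 0.14), -1.74 (SE 0.14) and 0.47 (SE 0.14), the last of which was not called without droughted replicate 2 of Huhan7B, at 0.37 (adjusted p = 0.0632).

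ERF130 (Os05g0497200), whose locus number lies directly before that of OsERF-074, was near 0 in the watered hybrid, at 0.11, 0.76 and 0.22 FPKM, and reached 6.55, 8.74 and 8.30 FPKM in drought. In Huhan7B it went from 4.41, 2.88 and 5.44 to 8.77, 11.7 and 12.4 FPKM. The log2 change was 2.72 (SE 0.21) in the hybrid, a value that depends on the pseudocount of 1, and 1.21 (SE 0.21) in Huhan7B, and -0.24 (SE 0.21) in Hanhui3 did not pass. Os02g0157950 rose by 0.52 in Hanyou73 and 0.35 in Hanhui3. OsERF-056 (Os05g0316800) and OsERF-121 (Os06g0691100) passed in no genotype, with group means of 14.8 to 22.2 and 7.68 to 8.33 FPKM.

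**Figure D2:**
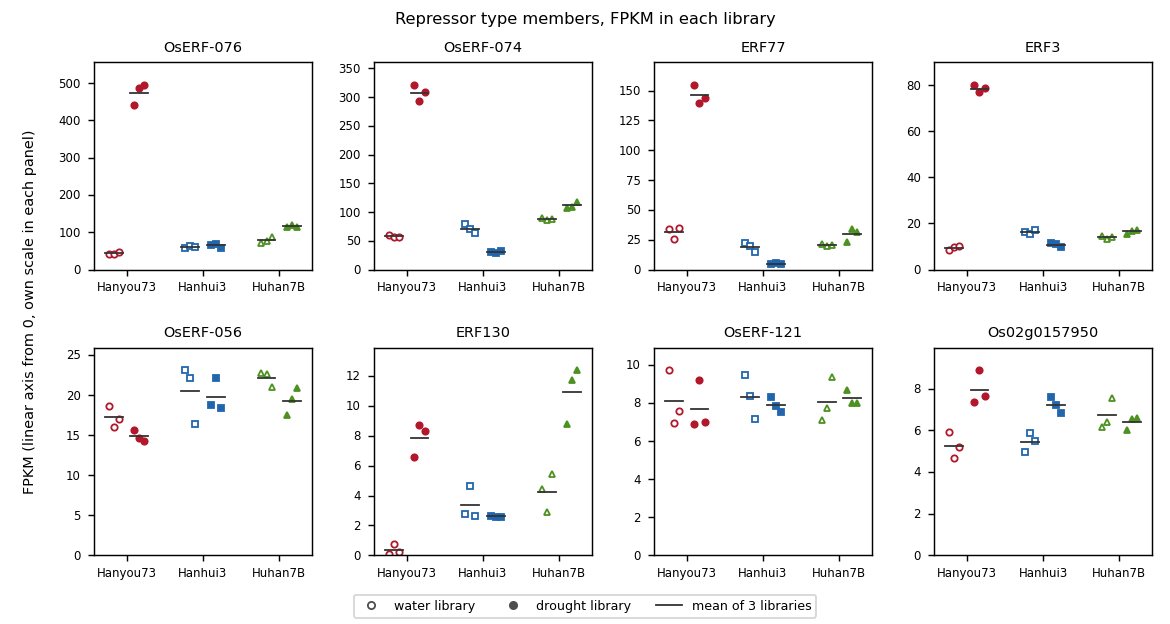
FPKM (y axis, linear from 0, own scale per panel) of the 8 repressor type members in each of 18 libraries, by genotype (x axis), with open symbols for water, filled symbols for drought and lines for the mean of 3 libraries. OsERF-076, OsERF-074, ERF77 and ERF3 stand higher in droughted Hanyou73 than in every other library, while OsERF-121 overlaps between water and drought in all 3 genotypes.

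Group VII type members, described as like RAP2-2, RAP2-12, ERF071, ERF073 or EREBP1 or as genes of Sub1, are known in Arabidopsis as factors of low-oxygen responses. Of 10 measured, 2 rose and 7 fell in Hanyou73 with a median log2 change of -1.05. In Hanhui3 2 rose and 6 fell, with a median of -0.49, and in Huhan7B 4 rose and 3 fell, with a median of 0.20. Sub1B and Sub1C are close copies beside each other, and reads that fit both could be split between them.

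Sub1C (Os09g0286600), a member of the Sub1 locus, was at 38.4, 33.0 and 38.5 FPKM in water and 2.90, 4.70 and 4.41 FPKM in drought in Hanyou73. Hanhui3 had 51.3, 56.3 and 48.3 FPKM in water and 24.2, 23.0 and 21.3 FPKM in drought, and Huhan7B had 179.8, 176 and 176 FPKM in water and 78.6, 91.2 and 90.6 FPKM in drought. All 3 genotypes fell without overlap, and the droughted hybrid was the lowest group of all. The log2 change was -2.93 (SE 0.11) in Hanyou73, -1.15 (SE 0.11) in Hanhui3 and -1.03 (SE 0.11) in Huhan7B.

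Its neighbour Sub1B (Os09g0287000) was at 268, 241 and 263 FPKM in water and 90.5, 85.7 and 81.3 FPKM in drought in Hanyou73. Hanhui3 had 364, 312 and 270.0 FPKM in water and 183, 172 and 187 FPKM in drought, and Huhan7B had 308, 289 and 296 FPKM in water and 304, 362 and 363 FPKM in drought. The hybrid and Hanhui3 fell without overlap, and the groups of Huhan7B overlapped. The log2 change was -1.57 (SE 0.09) in Hanyou73 and -0.79 (SE 0.09) in Hanhui3, and 0.20 (SE 0.09) in Huhan7B did not pass.

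OsLG3 (Os03g0183000), known in rice for grain length and drought tolerance, differed in direction between the parents. Its libraries held 31.9, 30.4 and 31.1 FPKM in water and 10.8, 9.77 and 9.60 FPKM in drought in Hanyou73. They held 8.22, 7.63 and 7.74 FPKM in water and 0.97, 0.73 and 1.41 FPKM in drought in Hanhui3 and 2.87, 2.63 and 2.70 FPKM in water and 7.32, 8.50 and 9.72 FPKM in drought in Huhan7B. Watered Hanyou73 was above every other library, and drought brought a fall without overlap in the hybrid and Hanhui3 and a rise without overlap in Huhan7B. The log2 change was -1.54 (SE 0.11) in Hanyou73, -2.13 (SE 0.11) in Hanhui3 and 1.34 (SE 0.11) in Huhan7B.

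OsEREBP (Os09g0434500) rose in all 3 genotypes and OsERF-064 (Os03g0183300) rose in the hybrid and fell in Hanhui3. OsEREBP was at 111, 115 and 119.7 FPKM in water and 368, 364 and 365 FPKM in drought in Hanhui3, its highest genotype, where the log2 change was 1.66 (SE 0.04). It went from a mean of 45.3 ± 1.70 to 102 ± 3.39 FPKM (SD, n = 3) in Huhan7B, a change of 1.16 (SE 0.04). In Hanyou73 the change of 0.47 (SE 0.04) became 0.29 after median-ratio scaling and was still called. OsERF-064 held 93.0, 91.2 and 94.3 FPKM in water and 279, 256 and 259.7 FPKM in drought in Hanyou73 and 204, 203 and 179.9 FPKM in water and 133, 127 and 134 FPKM in drought in Hanhui3. Its groups did not overlap in either, with changes of 1.50 (SE 0.05) and -0.57 (SE 0.05).

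OsEBP-89 (Os03g0182800) fell in Hanyou73 from 5.31, 5.04 and 6.06 to 0.70, 0.71 and 2.07 FPKM, a change of -1.64 (SE 0.21). It fell in Huhan7B, with a change of -1.05 (SE 0.21), from 5.08, 5.38 and 2.90 to 1.49, 1.59 and 1.64 FPKM. Hanhui3 held at most 0.53 FPKM of it in any library. In Hanyou73 and Huhan7B no droughted library reached a watered one. OsERF-065 (Os07g0617000) fell in all 3 genotypes, with log2 changes of -1.38 in Hanyou73, -1.81 in Hanhui3 and -0.61 in Huhan7B. EREBP1 (Os02g0782700) fell in Hanyou73 from 91.7, 95.5 and 97.2 to 59.2, 55.7 and 56.1 FPKM, a change of -0.72 (SE 0.05), and passed in neither parent. The hybrid groups of EREBP1 did not overlap. ERF71 (Os06g0194000), known in rice from work on roots and drought, fell in Hanyou73 from 179.6, 180.2 and 179 to 142, 142 and 144 FPKM and rose in Hanhui3 from 92.9, 91.7 and 92.7 to 141, 139.6 and 139 FPKM. The ERF71 changes were -0.33 (SE 0.03) in the hybrid, which became -0.51 after median-ratio scaling, and 0.59 (SE 0.03) in Hanhui3.

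**Figure D3:**
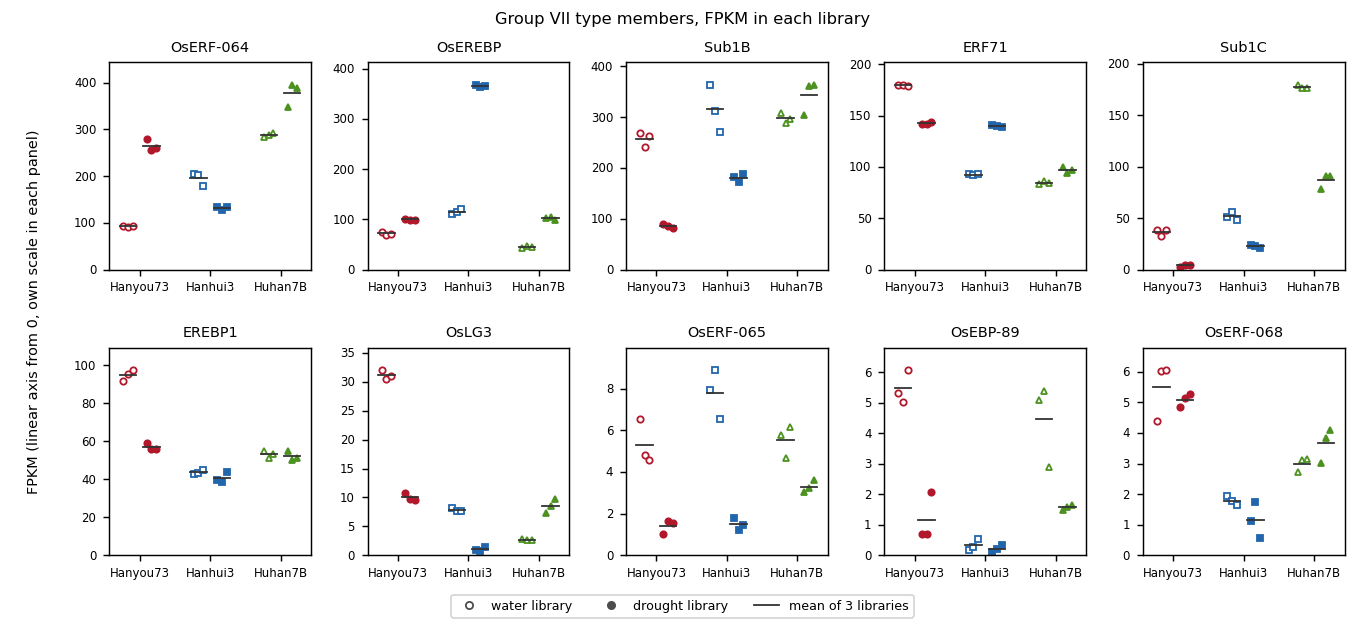
FPKM (y axis, linear from 0, own scale per panel) of the 10 group VII type members in each of 18 libraries, by genotype (x axis), with open symbols for water, filled symbols for drought and lines for the mean of 3 libraries. Sub1C falls in all 3 genotypes, OsLG3 falls in Hanyou73 and Hanhui3 and rises in Huhan7B, and OsEREBP is highest in droughted Hanhui3.

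Activator type members, described as like ERF1A, ERF2, ERF5 or ERF6, factors known in Arabidopsis for switching on defence genes after ethylene or jasmonate, numbered 4. In Hanyou73 3 rose and 0 fell, in Hanhui3 1 rose and 1 fell, and in Huhan7B 2 rose and 0 fell. The 1 that rose in Hanhui3 became 3 without its watered replicate 2 or its droughted replicate 3, and 3 rose there at an unadjusted p under 0.05. ERF95 (Os02g0655200) rose in all 3, from 1.37, 1.00 and 1.13 to 12.8, 11.8 and 15.7 FPKM in Hanyou73, a change of 2.73 (SE 0.20), and by 1.01 (SE 0.20) in Hanhui3 and 0.94 (SE 0.20) in Huhan7B. Both watered parents had a mean of ERF95 under 1 FPKM, so the sizes of the parental changes depend on the pseudocount of 1. DERF12 (Os10g0562900) passed in Hanyou73 alone, going from 17.8, 15.9 and 17.2 to 52.9, 50.0 and 53.5 FPKM without overlap, a change of 1.57 (SE 0.14). OsERF1 (Os04g0546800) was at 101, 90.1 and 77.8 FPKM in water and 30.1, 27.4 and 32.2 FPKM in drought in Hanhui3, where it fell by 1.55 on the log2 scale. It was at 46.7, 46.3 and 43.7 FPKM in water and 84.0, 96.2 and 103 FPKM in drought in Huhan7B, a change of 1.03 (SE 0.09), and rose by 0.78 (SE 0.09) in Hanyou73. The parents were thus on opposite sides, with no overlap of water and drought in either. ERF91 (Os02g0654700) passed in no genotype.

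Members described as like ERF109, ERF110, ERF113 or RAP2-6, a group known in Arabidopsis from wounding and stress, numbered 6, of which 4 rose and 1 fell in Hanyou73, 0 passed in Hanhui3 and 2 rose in Huhan7B. In Hanhui3 limma gave 0 in both directions, and 1 fell at an unadjusted p under 0.05. DERF3 (Os08g0474000) was at most 0.35 FPKM in the 15 libraries outside droughted Hanyou73, which held 9.45, 8.44 and 7.93 FPKM. DERF3 is 1 of the 4 that rose in Hanyou73 and was measured through that group alone. OsERF101 (Os04g0398000), known in rice from drought work, rose by 0.56 (SE 0.13) in Hanyou73 and 0.79 (SE 0.13) in Huhan7B. DERF5 (Os02g0764700) rose by 0.81 (SE 0.18) in Huhan7B, from 2.38, 2.60 and 3.35 to 4.78, 4.86 and 7.49 FPKM. ERF99 (Os01g0868000) fell by 1.09 in Hanyou73, from 4.07, 5.52 and 4.03 to 1.33, 1.63 and 1.83 FPKM.

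The RAP2-4 type, 8 members described as like RAP2-4, RAP2-13, ERF053, ERF054 or ERF061, holds several of the most abundant genes of the family. In Hanyou73 3 rose and 4 fell, in Hanhui3 0 rose and 4 fell, and in Huhan7B 3 rose and 2 fell. As shares, 37.5% rose and 50% fell in Hanyou73, against 45% and 25.7% of all genes. OsERF-047 (Os03g0191900) was at 1.16, 0.68 and 0.49 FPKM in the watered and 12.7, 13.1 and 12.9 FPKM in the droughted hybrid, the group that alone brought it past the filter, and reached at most 1.05 FPKM in a parental library. OsERF-050 (Os09g0369000) fell in Hanyou73 from 535, 505 and 499 to 249, 247 and 248 FPKM, a change of -1.05 (SE 0.08), and in Hanhui3 with a change of -0.72 (SE 0.08). In the watered hybrid it stood above every library of the parents. OsERF-052 (Os05g0572000) rose by 1.30 (SE 0.16) in Hanyou73 and 1.07 (SE 0.16) in Huhan7B, and the Hanhui3 value of 0.02 (SE 0.16) did not pass. OsERF-141 (Os02g0638650) fell, with changes of -0.75 (SE 0.12) in Hanyou73 and -1.41 (SE 0.12) in Hanhui3. Os02g0752701 fell in both parents, with changes of -0.81 (SE 0.05) in Hanhui3 and -0.87 (SE 0.05) in Huhan7B. Its locus number lies next to that of OsERF-049, which passed in no genotype, and reads of overlapping transcripts could be shared between them.

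DREB and TINY type members outside the 5 loci left out numbered 8, with 5 rising and 1 falling in Hanyou73, 4 and 2 in Hanhui3, and 2 and 1 in Huhan7B. For Hanyou73 that was 62.5% and 12.5%, against 45% and 25.7% of all genes. Only 4 of the 8 reached 5 FPKM in 3 libraries, and of these 2 rose in Hanyou73 and 2 in Hanhui3. OsERF-007 (Os06g0166400), described as RAP2-9 like, rose in all 3. It was at 19.5, 16.5 and 19.0 FPKM in water and 59.5, 68.1 and 63.2 FPKM in drought in Hanyou73, with changes of 1.74 (SE 0.08) there, 0.95 (SE 0.08) in Hanhui3 and 0.45 (SE 0.08) in Huhan7B. OsERF-133 (Os09g0522100), described as DREB1H, was listed at 0 in all 3 watered hybrid libraries and at 6.39, 4.46 and 5.63 FPKM in drought. In Hanhui3 it went the other way, from 3.13, 2.12 and 2.12 to 0.42, 0.45 and 0.16 FPKM, a change of -1.36 (SE 0.15). OsERF-039 and OsDREB1G were listed at 0 in the watered hybrid too and reached 1.45, 2.19 and 1.84 FPKM and 1.77, 1.49 and 1.20 FPKM in drought. OsERF-039 and OsDREB1G are 2 of the 5 that rose and were measured through that group alone. The log2 change of OsERF-133 in the hybrid, 2.69, rests on the added 1 and is no bound, so a fold is not stated. OsERF-042 (Os05g0346200), which is DREB2B, fell in Hanyou73 from 100.1, 96.8 and 96.2 to 57.37, 53.15 and 57.95 FPKM, a change of -0.79 (SE 0.04). OsERF-008 (Os04g0648900) rose by 0.73 (SE 0.08) in Huhan7B.

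Of 5 members described as cytokinin response factors (CRF), ERF117, ERF118 or ESR1, 2 rose and 2 fell in Hanyou73, 2 rose and 2 fell in Hanhui3, and 1 rose and 2 fell in Huhan7B. The share that rose in Hanyou73, 40%, was near the 45% of all genes, while 40% fell against 25.7%. The abundant OsERF-058 went from 274, 231 and 196 to 619, 654 and 705 FPKM in Hanyou73, a change of 1.50 (SE 0.14), and by 0.93 (SE 0.14) in Hanhui3. Its change of 0.42 (SE 0.14) in Huhan7B was not called without watered replicate 3, at 0.29 (adjusted p = 0.116), droughted replicate 1, at 0.34 (adjusted p = 0.0856), or droughted replicate 3, at 0.34 (adjusted p = 0.0881). OsAP2 rose in Hanyou73, from 319, 294 and 297 to 654, 654 and 615 FPKM, and fell in Huhan7B, from 577, 522 and 590.0 to 414, 402 and 374 FPKM. Its changes were 1.08 (SE 0.07) and -0.50 (SE 0.07), with no overlap of water and drought in either. ERF109 (Os09g0309700), described as like ERF117 or ERF118, fell in all 3, with changes of -0.63 in Hanyou73, -0.32 in Hanhui3 and -0.55 in Huhan7B.

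Among 6 AP2 type members, described as AP2-like or WRI1, 4 rose and 0 fell in Hanyou73, 4 rose and 1 fell in Hanhui3, and 1 rose and 1 fell in Huhan7B. ERF142 (Os05g0389000), known in rice as an organ size regulator under auxin, rose by 1.39 (SE 0.14) in Hanyou73 and 0.83 (SE 0.14) in Hanhui3, where it went from 9.15, 12.0 and 10.8 to 18.8, 20.5 and 19.5 FPKM. SHAT1 (Os04g0649100), a rice gene of the seed abscission zone, rose in Hanhui3 from 26.7, 24.7 and 24.2 to 39.0, 38.9 and 41.6 FPKM and fell in Huhan7B from 51.3, 49.4 and 46.7 to 37.0, 39.7 and 39.8 FPKM. Its changes were 0.64 (SE 0.05) and -0.33 (SE 0.05). AP2-EREBP-052 (Os05g0536250) rose by 1.22 (SE 0.15) in Huhan7B and fell by 1.05 in Hanhui3. Its mean was under 1 FPKM in watered Huhan7B and in both groups of Hanyou73. The single member outside all these groups, OsERF-140 (Os02g0499000), rose by 0.75 (SE 0.06) in Hanyou73.

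Members called in the same direction in all 3 genotypes were a minority, as were such genes among all genes tested. In all 3 genotypes 4 members rose (ERF95, OsERF-058, OsERF-007 and OsEREBP) and 6 fell (Os02g0752701, OsERF-042, OsERF-065, Sub1C, ERF109 and OsERF-050), beside 9.04% and 6.2% of all genes. The 6 include the fall of OsERF-042 in Hanhui3, which was -0.11 (SE 0.04) and was not called in 10 of 27 alternatives, at -0.07 (adjusted p = 0.187) without droughted replicate 3 of Hanhui3, while median-ratio scaling made it larger, at -0.23 (adjusted p = 0.000521). They include also the fall of OsERF-050 in Huhan7B, which was -0.27 (SE 0.08) and became -0.15 (adjusted p = 0.144) after median-ratio scaling. Another 6 members rose in Hanyou73 and Huhan7B and fell in Hanhui3, namely ERF3, OsERF-064, OsERF1, ERF77, OsERF-074 and AP2-EREBP-052, a pattern called in 1.08% of all genes. The rises of ERF3 and ERF77 in Huhan7B were small and lost the call when certain single Huhan7B libraries were left out, as given above. For AP2-EREBP-052 the means of both hybrid groups and of watered Huhan7B were under 1 FPKM. Its rise in the hybrid thus lies near the floor and depends on the added 1. Called in opposite directions were 8 members between Hanyou73 and Hanhui3 (14.3%, against 6.81% of all genes), 4 between Hanyou73 and Huhan7B (7.14% against 12.8%) and 9 between the parents (16.1% against 13.2%).

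Whether the hybrid responded differently from its parents was tested as its drought response minus the mean of the parental responses. That difference was positive for 24 members and negative for 14, beside 38.8% and 19.5% of all genes, and 19 members (33.9%, against 13.3% of all genes) had a called difference of at least 1. Without the 4 members that the droughted hybrid alone brought in, 20 were positive and 16 had a called difference of at least 1. Of the repressor type 6 of 8 were positive and 0 negative, with a median of 2.53, and of group VII type 1 was positive and 7 negative, with a median of -0.83. For ERF3 the difference was 3.11 (SE 0.09) and for OsERF-076 3.07 (SE 0.09), and for OsERF-074 it was 2.82 (SE 0.08). Sub1C had a difference of -1.84 (SE 0.14), Sub1B one of -1.28 (SE 0.11), and OsLG3, between parents of opposite sign, one of -1.14 (SE 0.13).

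Between the parents, the response of Hanhui3 minus that of Huhan7B was positive for 12 members and negative for 21, beside 36.2% and 17.1% of all genes, and for 8 and 24 after median-ratio scaling. OsLG3 differed most, at -3.48 (SE 0.15), followed by OsERF1 at -2.57 (SE 0.12), AP2-EREBP-052 at -2.26 (SE 0.21) and ERF77 at -2.22 (SE 0.20). On the positive side stood SHAT1 at 0.97 (SE 0.07) and ERF142 at 0.85 (SE 0.19). Among the repressor type 1 was positive and 5 negative, among the RAP2-4 type 0 were positive and 5 negative, and among group VII type 3 were positive and 5 negative.

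Levels of the hybrid were next set against the mean of its parents, taken on the log2 scale. In water 23 members were above and 18 below mid-parent, beside 43.7% and 23.5% of all genes, and in drought 33 were above and 13 below, beside 58.4% and 14.3%. Median-ratio scaling turned the balance in water to 19 above and 21 below, and changed the drought split to 24 above and 19 below. Without the 4 members that the droughted hybrid alone brought in, 29 were above in drought. Median-ratio scaling lowered the median difference of all genes by 0.12 in water, from 0.14 to 0.02, and by 0.27 in drought, from 0.31 to 0.04. Members called with a difference of at least 1 numbered 19 in water and 20 in drought (33.9% and 35.7%, against 16.9% and 15.9% of all genes). Without those 4 members the drought number was 17. Of the repressor type 1 was above and 5 below in water, and 6 above and 1 below in drought.

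The hybrid lay outside the range of both parents, called against each, for many of these members. In water 16 were above both and 14 below both, beside 26.4% and 12.5% of all genes. In drought 27 were above and 8 below, beside 39.2% and 7.83%, and without the same 4 members 23 were above. Among the 27, EREBP1, OsERF-050, Os02g0752701 and Os02g0712400 were no longer called above mid-parent in limma's test after median-ratio scaling. Their differences from mid-parent were then -0.0046, 0.0965, 0.0128 and 0.1411, with adjusted p from 0.156 to 0.928. By the distance from the nearer parent on the log2 scale, ERF77 at 2.29 (SE 0.14) and ERF3 at 2.18 (SE 0.07) led the droughted hybrid, apart from DERF3 and OsERF-047, whose distance follows from the filter. DERF12 at 2.05 (SE 0.14) and OsERF-076 at 2.02 (SE 0.07) came next, and Sub1C, at -2.27 (SE 0.11), was farthest below. In water OsLG3 was farthest above both parents, at 1.86 (SE 0.11), with DERF5 at 1.36 (SE 0.18) and ERF91 at 1.22 (SE 0.14). OsERF1, at -1.43 (SE 0.09), and OsERF-140, at -1.18 (SE 0.06), were among the farthest below. Each distance is the difference from the nearer parent alone, with the SE of that difference.

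**Figure D4:**
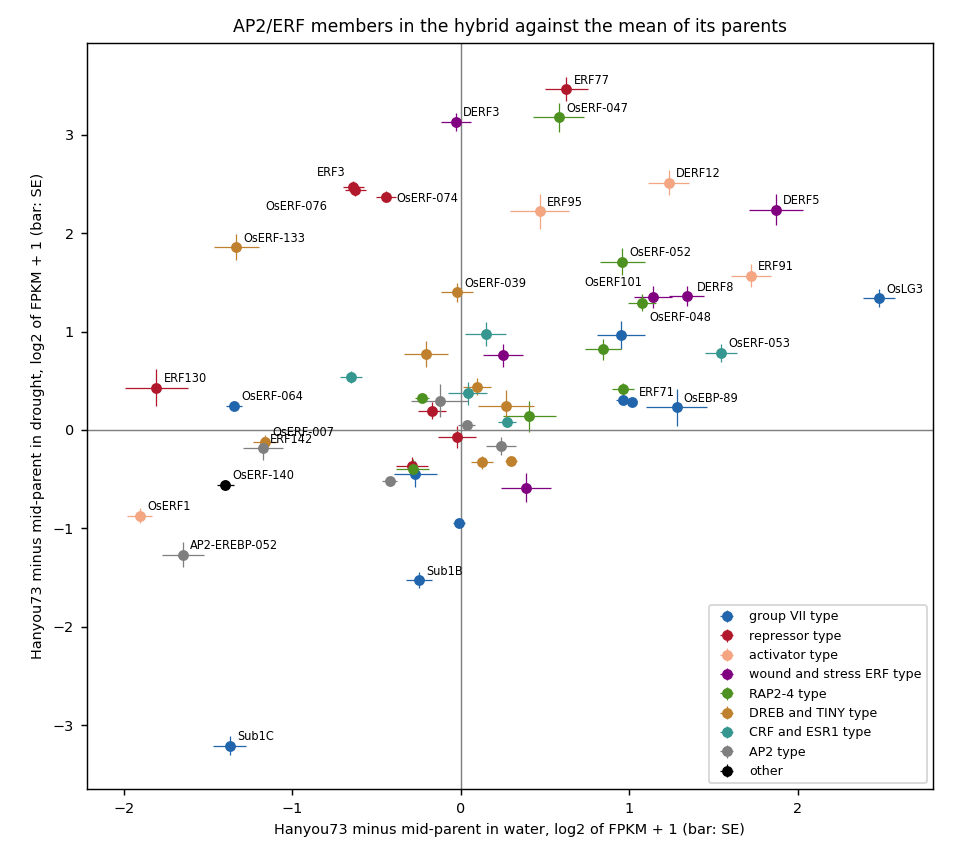
Difference of Hanyou73 from the mean of its parents in log2 of FPKM + 1, in water (x axis) and in drought (y axis), for the 56 members coloured by role, with bars for the SE of the fit and names for members at 1 or more from 0 on either axis. DERF3, OsERF-047, OsERF-039 and OsDREB1G are high in drought by the filter. ERF3, OsERF-076 and OsERF-074 are below mid-parent in water and above it in drought, and Sub1C is far below in drought.

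Between the parents 14 members were higher in Hanhui3 and 20 in Huhan7B in water, beside 25.3% and 41.2% of all genes, and after median-ratio scaling the split turned to 20 and 15. In drought 11 were higher in Hanhui3 and 30 in Huhan7B, beside 32% and 26.9%. Group VII type was 2 and 8 in drought, the RAP2-4 type 0 and 5, and the repressor type 0 and 5. Members of at least 1 in the called difference numbered 8 in water (14.3% against 16.9% of all genes) and 15 in drought (26.8% against 14.1%). Droughted Hanhui3 was above droughted Huhan7B for OsEREBP by 1.83 (SE 0.04) and for ERF142 by 1.78 (SE 0.14). Below it were ERF77 at -2.36 (SE 0.14), OsLG3 at -2.23 (SE 0.11), DERF5 at -2.13 (SE 0.18), Sub1C at -1.88 (SE 0.11) and OsERF-074 at -1.83 (SE 0.07). DERF8 (Os12g0168100) was nearly silent in Hanhui3, at most 0.06 FPKM, and stood at means of 0.807 ± 0.299 FPKM in watered Huhan7B and 2.42 ± 0.242 FPKM in watered Hanyou73 (SD, n = 3).

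The rest of the ethylene pathway was read from descriptions, from the synthesis of the hormone to the factors that switch on ERF genes. Of 59 genes found 38 were tested, 7 of which name another function and were set aside, leaving 31. Os07g0156732 and Os07g0157401, both described as EIN2, carry identical values in every library and were counted as 1 measurement, which left 30. In Hanyou73 8 of the 30 rose and 14 fell, in Hanhui3 7 rose and 13 fell, and in Huhan7B 4 rose and 10 fell, with medians of -0.22, -0.11 and -0.09. For this list the share that fell was 46.7%, 43.3% and 33.3%, against the 25.7%, 18.4% and 32.1% of all genes given above. The share that rose was 26.7%, 23.3% and 13.3%, against 45%, 35.1% and 21.2% of all genes.

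At the start of the pathway, where SAM synthase makes the precursor S-adenosylmethionine, OsSAM2 (Os01g0323600) fell in all 3 genotypes, from 65.0 ± 2.21 to 28.7 ± 3.10 FPKM (SD, n = 3) in Hanyou73. Its changes were -1.16 (SE 0.17) in Hanyou73, -1.68 (SE 0.17) in Hanhui3 and -1.36 (SE 0.17) in Huhan7B. Of 4 SAM synthase genes 1 rose and 3 fell in Hanyou73, 2 rose and 2 fell in Hanhui3, and 0 rose and 3 fell in Huhan7B. The most abundant, OsSAMS1 (Os05g0135700), went the other way in Hanhui3, from 209 ± 11.1 to 339 ± 5.47 FPKM (SD, n = 3), a change of 0.70 (SE 0.03), beside -0.65 (SE 0.03) in Hanyou73 and -0.81 (SE 0.03) in Huhan7B. Os01g0323775 was the 1 that rose in Hanyou73, by 2.00 (SE 0.29). Its rise in Hanhui3, 0.73 (SE 0.29), was not called without watered replicate 1 of Hanhui3, at 0.40 (adjusted p = 0.246). Nor was it called with library weights, at 0.47 (adjusted p = 0.159). ACC synthase, which makes the direct precursor, left no gene of its own function among those tested. Of 7 ACC oxidases, the enzymes that release ethylene, 2 rose and 2 fell in Hanyou73, and ACO5 (Os05g0149400) fell there from 56.1 ± 2.14 to 9.45 ± 0.248 FPKM (SD, n = 3), a change of -2.45 (SE 0.13). The parents held a mean of 10.4 FPKM or less of ACO5 in each group. Os09g0451000 rose in Hanhui3 from 0.203 ± 0.015 to 5.45 ± 0.115 FPKM (SD, n = 3), a change of 2.42 (SE 0.19).

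The receptor gene ETR3 (Os02g0820900) fell in all 3, with changes of -0.51 in Hanyou73, -0.30 in Hanhui3 and -0.23 in Huhan7B, the last of which became -0.13 (adjusted p = 0.132) after median-ratio scaling. The other receptor tested, ETR2 (Os04g0169100), rose in Hanyou73 by 0.30 (SE 0.05), or 0.13 after median-ratio scaling, fell in Hanhui3 by 0.17, or with that scaling at -0.29, and did not pass in Huhan7B, at -0.13 (SE 0.05). Of 2 genes described as RTE1, reversion to ethylene sensitivity, 1 rose in Hanyou73, 2 in Hanhui3 and 1 in Huhan7B, and 0 fell. OsRTH1 (Os01g0711600) rose by 0.81 (SE 0.11) in Hanyou73 and OsRTH2 (Os05g0539800) by 0.76 (SE 0.11) in Hanhui3. Of 3 CTR1 genes 0 rose and 2 fell in Hanyou73, 0 and 1 in Hanhui3, and 1 and 1 in Huhan7B. The fall in Huhan7B, of OsCTR2, became -0.11 (adjusted p = 0.222) after median-ratio scaling. Of 3 EIN2 measurements 2 rose and 1 fell in Hanyou73, 1 and 1 in Hanhui3, and 0 and 1 in Huhan7B. The rises lost the call after that scaling, with adjusted p from 0.107 to 0.189. EIN2 (Os07g0155600) fell in all 3 genotypes, with changes of -0.22, -0.73 and -0.59 in that order. Among the EIN3 relatives, the transcription factors directly above the ERF genes, 1 rose and 3 fell in Hanyou73, 0 rose and 4 fell in Hanhui3, and 1 rose and 2 fell in Huhan7B. Of the 4 in Hanhui3, EIL2 (Os07g0685700) was not called in 5 of 27 alternatives, among them -0.12 (adjusted p = 0.193) without watered replicate 1. The most abundant of these relatives, EIL1 (Os03g0324300), had group means of 244 to 345 FPKM. Its change was -0.29 (SE 0.07) in Hanyou73, or -0.47 after median-ratio scaling, and it passed in neither parent. OsEIL4 (Os08g0508700) went from 5.68 ± 0.502 to 0.240 ± 0.089 FPKM (SD, n = 3) in Hanyou73, a change of -2.43 (SE 0.12), with -1.18 (SE 0.12) in Hanhui3 and -0.32 (SE 0.12) in Huhan7B. The Huhan7B value was not called in 8 of 27 alternatives, 4 of which left out a single Huhan7B library, at -0.33 to -0.26 with adjusted p from 0.064 to 0.125. OsEIL3 (Os09g0490200) fell too, with changes of -1.03, -0.76 and -0.31 in the same order, and median-ratio scaling took the last to -0.20. Both genes of EIN3-binding F-box proteins, which mark EIN3 for breakdown, fell in all 3, OsFbox072 (Os02g0200900) with changes of -0.34, -0.22 and -0.53. After median-ratio scaling the first pair of these became -0.52 and -0.35, and both were still called. The other, OsFbox316 (Os06g0605900), was at -0.42, -0.51 and -0.27, and its value in Huhan7B became -0.17 (adjusted p = 0.0727) after that scaling.

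**Figure D5:**
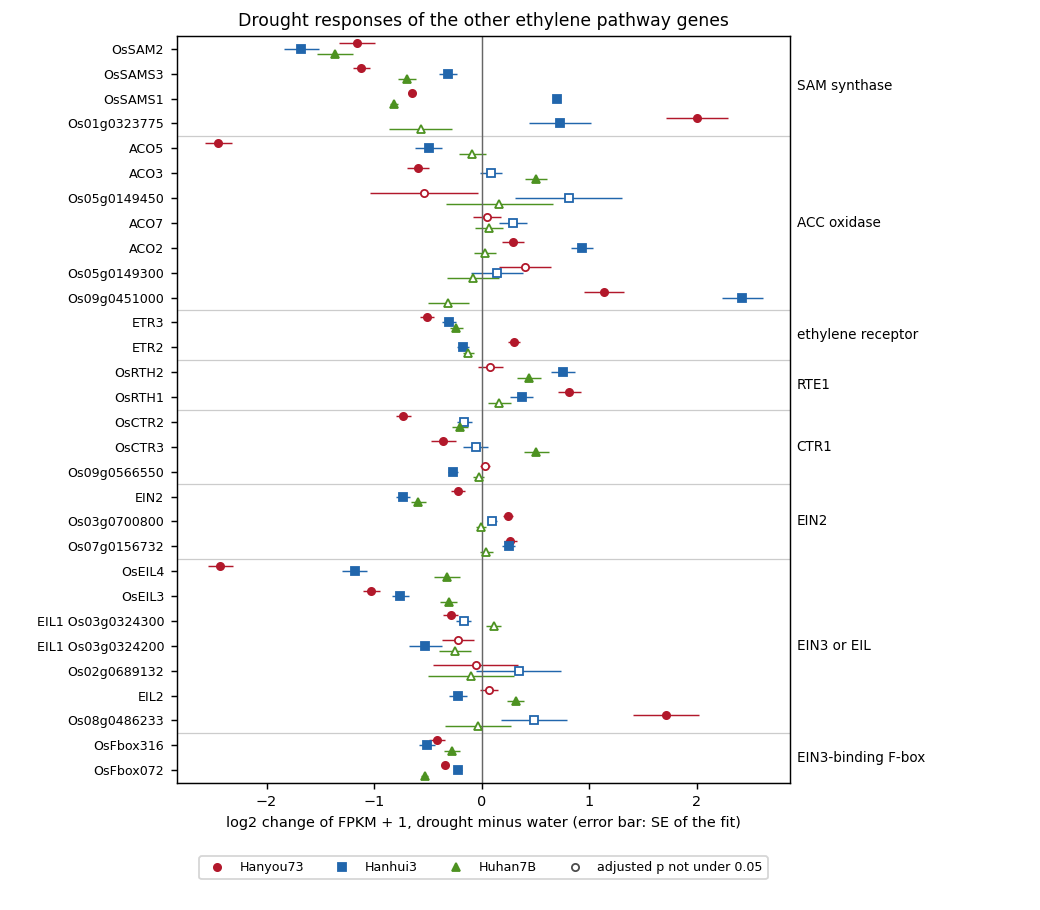
Log2 change of FPKM + 1 from water to drought (x axis) of the 30 other ethylene pathway measurements (y axis, by step) in Hanyou73 (circles), Hanhui3 (squares) and Huhan7B (triangles), with bars for the SE of the fit and open symbols where the adjusted p was not under 0.05. ACO5 and OsEIL4 fall furthest in Hanyou73, and OsSAM2 falls in all 3 genotypes.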

How the data were processed

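Polyadenylated RNA of 18 rice flag leaf libraries was examined, in 6 groups of 3 read from the labels. Per the submitters' processing notes, fastp, HISAT2, StringTie, RSEM and DESeq2 were used on the IRGSP-1.0 build, with versions not given in the sources used here. The deposited values are FPKM, a unit inferred from the values: they carry decimals, sum to 958893 to 1140989 per library, and follow length less about 310 bases. Depth was estimated from the steps of low values, of which 75.7% to 80.9% were whole fragments within 0.1. Intervals from depth would cover counting error only.

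The test covered 22590 genes, those with 3 or more libraries at FPKM 1 or above, after removal of 1017 structural RNA genes. Group means of the 6 groups were fitted on log2(FPKM + 1) by limma 3.58.1 (R 4.3.3), allowing the variance to follow intensity. Its moderated tests were two-sided, with Benjamini-Hochberg adjustment and a threshold of 0.05. The fit was tested on simulated data. Counts were not used here, and the plan named this test for FPKM. No 2 libraries held identical values. The replicate numbers only name pools.

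Members and lists were chosen with earlier results of these data known. Named members were the largest called, non-overlapping changes per genotype and direction, those called alike in all 3 genotypes, the largest differences between responses and between groups, the 10 most abundant and a list of known genes, of which OsDREB1E, FZP and OsERF-044 were under the filter. Other members were named to complete a role group, after their values were seen. Roles were assigned from descriptions, since protein and promoter sequences were not used here. A RefSeq gene table of assembly ASM3414082v1, matched for 50 of 152 members, gave symbols only. Alternatives changed the pseudocount, the filter, the scaling, the samples fitted, library weights, a replicate block, and left out each library.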

Additional observations from a re-analysis of the deposited data

Results flagged for a closer look

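The drought response of Hanyou73 differed from the mean of its parents' responses, in limma's test of that difference, for several members by a large amount. Higher in the hybrid were OsERF-133 by 3.19, ERF3 by 3.11, OsERF-076 by 3.07, ERF77 by 2.84 and OsERF-074 by 2.82 on the log2(FPKM + 1) scale. OsERF-133 was listed at 0 in watered Hanyou73, so its value depends on the pseudocount. DERF3 was higher by 3.16, but it was measured only because droughted Hanyou73 brought it past the filter, so that difference follows from the filter and is no test. Lower were Sub1C at -1.84, Sub1B at -1.28, OsLG3 at -1.14, OsEBP-89 at -1.05, ERF99 at -0.97 and OsEREBP at -0.94. The parental mean response of OsEBP-89 takes in Hanhui3, where the gene was too low for such a fall to show.

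The responses of the parents differed from each other, by the same kind of test, for 12 members picked by size. Higher in Hanhui3 were SHAT1 by 0.97, OsERF-034 by 0.97, OsEBP-89 by 0.93, ERF142 by 0.85, OsAP2 by 0.78 and OsERF-058 by 0.51. OsERF-034 reached at most 2.22 FPKM in any library and a mean of at least 1 FPKM in only 2 groups. Its value therefore depends on the pseudocount. Lower in Hanhui3 were OsLG3 at -3.48, OsERF1 at -2.57, AP2-EREBP-052 at -2.26, ERF77 at -2.22, OsERF-133 at -1.71 and OsERF-074 at -1.52. The differences of OsERF-058 and OsEBP-89 were not called under every alternative. Hanhui3 held little OsEBP-89 in either treatment, as given above, so a fall like that of Huhan7B could not show there. The leaf marker sums given with the libraries move with genotype and treatment, and their part in these differences was not tested.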

How the results depend on the processing

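For the whole member list or the whole ethylene pathway list, 378 totals of called genes, higher plus lower, were compared under 27 alternatives. All were within 1.5 times the totals of the reported counts. The split into higher and lower was not part of that comparison. Median-ratio scaling moved it for the hybrid against mid-parent, from 23 and 18 to 19 and 21 in water and from 33 and 13 to 24 and 19 in drought. For Hanhui3 against Huhan7B in water it went from 14 and 20 to 20 and 15. In the other member comparisons the larger side stayed the same. Counts by role are not among the 378. Of 90 role counts over the 3 drought responses and the differences between responses, 31 moved beyond 1.5 times in some alternative. Most of the 31 were counts of 3 or fewer. With the filter at 5 FPKM the DREB and TINY type risers went from 5 to 2 in Hanyou73 and from 4 to 2 in Hanhui3. Of 10669 comparisons of single called values, 10388 kept their direction and call, 276 lost the call and 5 reversed. The reversals came with median-ratio scaling: ERF109 to -0.0030 for the parents' difference in response, and EREBP1 to -0.0046, ERF71 to -0.0255, Os02g0157950 to -0.0808 and OsERF-064 to -0.0684 for the hybrid against mid-parent in drought, with adjusted p from 0.266 to 0.982. That scaling shifts the median of all genes by up to 0.27. For OsERF-058 the parents' difference of 0.51 was not called in 12 alternatives, with adjusted p up to 0.283 after scaling, and that of OsEBP-89 was not called with a pseudocount of 0.1 (adjusted p = 0.152).

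Samples of the same replicate number deviated together at r of -0.04 to 0.05 over 9 pairs, and 3 of 9 correlated best with their own number, so the numbers do not pair the samples. With a replicate block the fall of OsERF-042 in Hanhui3 stayed at -0.11 and was not called (adjusted p = 0.0634). In Hanyou73 6 repressor type members rose and 7 of group VII type fell under all 27 alternatives. Members near 1 FPKM rest on few fragments.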
